A study of Petromyzon marinus with 10 samples.

Results

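NR1D1 and HLF are transcription factor genes tied to the circadian clock, and both appear in the list of baclofen-responsive genes that the study drew from these same libraries. They are 2 of the 57134 loci counted, locus MSTRG.4746 for NR1D1 and locus MSTRG.8594 for HLF, with names as that list pairs them. The list was made with an adjusted p under 0.05 between baclofen and control. Each gene was thus selected on its own baclofen difference and on its spread within the groups, which enters that p. Both are given here as descriptions, and any p or threshold quoted for them restates the selection and is no independent support. What the selection did not use, and what is tested here, is the transcribed loci beside each gene and whether the genes deviate from their group means together.

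RNA came from brainstems of larval sea lampreys (Petromyzon marinus), wild-caught animals of 5 to 7 years, whose spinal cord had been cut through completely. In the 5 baclofen libraries the animals had been kept after the injury in water with baclofen, an agonist of the GABAB receptor, and in the 5 control libraries the animals were injured in the same way and received no drug. Each library pooled brainstems of several animals, so the p-values below measure the spread between pools. The text of the series puts the tissue at 29 days after injury. The study's methods give that day for a separate experiment with GABA, and an earlier day for baclofen animals and their controls. Neither the hour of dissection nor the light cycle is given in the sources used here. In such bulk tissue, fewer cells of a type and less RNA per cell cannot be told apart.

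In mammals NR1D1, also called REV-ERB alpha, is a haem-binding nuclear receptor that represses BMAL1, the gene of a core activator of the clock, and is itself switched on by that activator. HLF, hepatic leukemia factor, is a PAR bZIP factor of the family that also holds DBP and TEF. These factors bind D-box elements and carry the daily rhythm to genes downstream of the clock. Levels of NR1D1 and of the PAR bZIP family swing over the day in many mammalian tissues.

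Total counts ranged from 12774386 to 19566056 per library, and the 20 pairs of libraries within a group all differed by more than counting noise. Control replicate 1 stood apart, with a chi-square per degree of freedom of 7.43 to 13.6 in its 4 pairs and 3.48 to 6.92 in the other 16. With DESeq2, 82 of 23794 tested loci (0.345%) had an adjusted p (Benjamini-Hochberg) under 0.05, and 64 of them (0.269%) were higher with baclofen. Without control replicate 1, 426 loci passed. With edgeR's quasi-likelihood test, 25 of 27244 loci (0.0918%) passed the same threshold. In 182 of the 23794 loci (0.765%) every baclofen library lay above every control. Both genes were selected inside the first of these shares, and nothing is read from that.

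The locus of NR1D1 lies on the plus strand of scaffold PIZI01000005.1 of the germline assembly, from 22057474 to 22076731. Its exons merge into 10 blocks of 48 to 4409 bp with a summed length of 7799 bp. The longest block is the last one at the 3′ end, and the longest gap, 5606 bp, follows the second block.

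NR1D1 was higher in all 5 baclofen libraries than in any control. Its normalised counts (counts divided by the DESeq2 size factor of the library) with baclofen were 1521, 2091, 1664, 2069 and 1952 in replicates 1 to 5. In the controls they were 395.4, 750.1, 708.1, 330.3 and 580. The lowest baclofen library, replicate 1, was still above the highest control, replicate 2. The baclofen mean was 1859 ± 254 against a control mean of 552.8 ± 185.8 (SD, n = 5 each). The log2 fold change was 1.75 ± 0.23 (SE), a 3.37-fold higher level. This was the 4th largest log2 difference, in either direction, among the 16375 tested loci whose normalised counts averaged 50 or more.

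HLF lies at the edge of its scaffold, on the minus strand of PIZI01000011.1 from 15422 to 55490. It also has 10 exon blocks, of 49 to 1907 bp, with a summed length of 6432 bp. A gap of 29025 bp after the second block makes up most of its span of 40069 bp.

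HLF was higher with baclofen by a much smaller margin. Its normalised counts with baclofen were 534, 496.2, 527.7, 513 and 469.6 in replicates 1 to 5, and in the controls 349.6, 417.3, 361.2, 331.3 and 481.6. The groups overlapped through a single pair, with baclofen replicate 5 below control replicate 5, and the other 4 baclofen libraries lay above all controls. The means were 508.1 ± 26.0 and 388.2 ± 61.3 (SD, n = 5 each). The log2 fold change was 0.39 ± 0.10 (SE), a 1.31-fold higher level. By its size this was only the 313th largest log2 difference among the same 16375 loci.

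**Figure D1:**
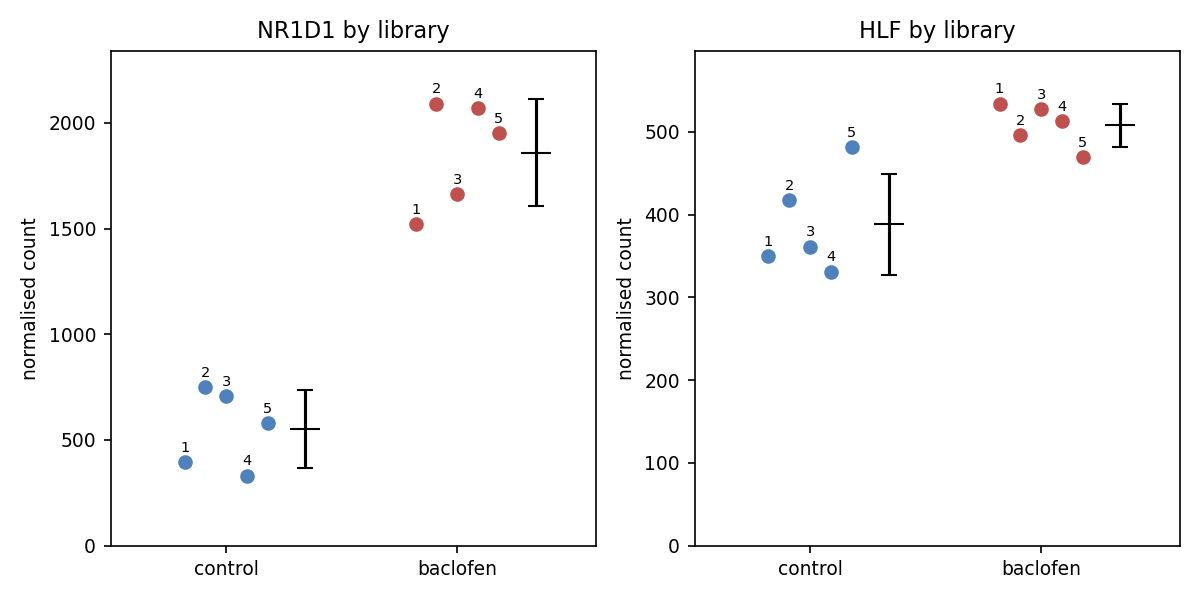
Normalised counts (vertical axes, starting at 0) of NR1D1 and HLF in each library, numbered by replicate, with the mean and SD of each group as a bar. The NR1D1 groups do not overlap (330.3 to 750.1 in controls, 1521 to 2091 with baclofen), while in HLF control replicate 5 lies above baclofen replicate 5.

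The selection left the genes at opposite ends of the list. NR1D1 had the 4th smallest adjusted p of all loci (DESeq2, 3.48e-10) and HLF the 75th (DESeq2, 0.0419) of 82. The last loci inside the threshold were SQOR (0.0456), the mitochondrial sulfide:quinone oxidoreductase, and MSTRG.27497 (0.0469). The first ones outside were MSTRG.29392 (0.0516) and MSTRG.2928 (0.0540). The edgeR adjusted p was 0.00114 for NR1D1 and 0.264 for HLF, so HLF did not pass with edgeR.

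The fits with a library left out use the libraries that selected the genes, so they show only how much a single library weighs. The log2 fold change of NR1D1 ranged from 1.61 to 1.89 over these fits and was 1.65 without control replicate 1. That of HLF ranged from 0.33 to 0.48 and was 0.35 without control replicate 1, but its DESeq2 adjusted p was over 0.05 in 7 of these 10 fits. It passed only without control replicate 1, 2 or 5. Without control replicate 5, the highest control, the log2 fold change was 0.48 and the DESeq2 adjusted p 0.000211. Without control replicate 4, the lowest control, they were 0.33 and 0.268.

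**Figure D2:**
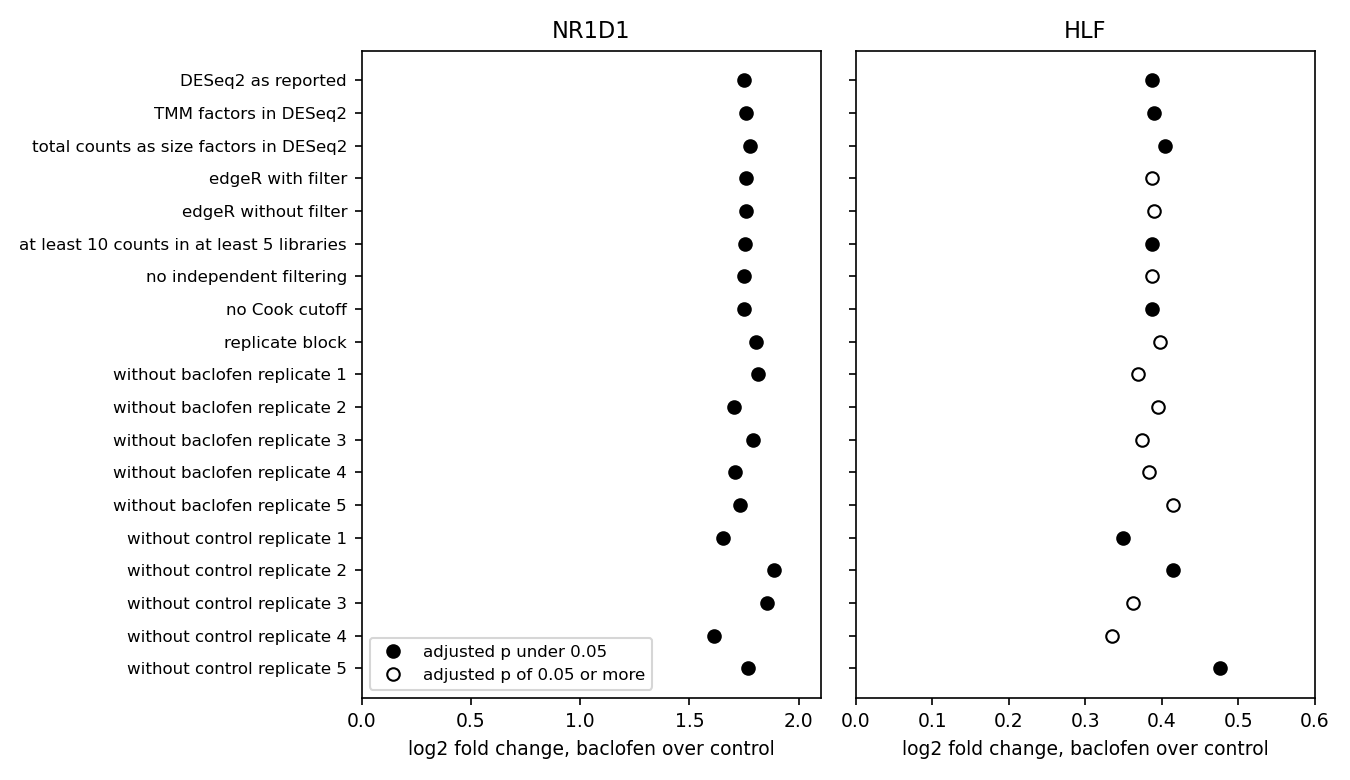
Log2 fold change of baclofen over control (horizontal axes, different ranges) for NR1D1 and HLF under each setting and with each library left out, with filled points where the adjusted p was under 0.05. NR1D1 stays between 1.61 and 1.89 with all points filled, and HLF stays between 0.33 and 0.48 with open points for edgeR, the replicate block, no independent filtering and 7 of the 10 libraries left out.

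Per kilobase of exon, which allows levels of different genes to be compared, the genes were close in controls and apart with baclofen. In controls the normalised count per kilobase was 70.9 ± 23.8 for NR1D1 (42.4 to 96.2) and 60.4 ± 9.5 for HLF (51.5 to 74.9), so the ranges overlapped and no order can be given. With baclofen it was 238.4 ± 32.6 for NR1D1 (195 to 268.1) and 79.0 ± 4.0 for HLF (73.0 to 83.0). Among tested loci, the level of NR1D1 per kilobase stood at percentile 55.0 in controls and 86.6 with baclofen. That of HLF stood at 49.4 and 58.5.

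The spread among libraries of one group also set the genes apart. The coefficient of variation of NR1D1 was 33.6% in controls and 13.7% with baclofen, whereas counting error alone gives 1.99 to 5.60% at its 319 to 2521 counts per library. Tested loci were matched to each gene by a mean over all 10 libraries within 2-fold of its own. Among the 4567 loci so matched to NR1D1, it was at percentile 99.7 for variation in controls and 96.3 with baclofen. The mean of NR1D1 in controls alone, 552.8, lay under this window around 1206. Its control percentile is thus not one among loci of like level in controls. HLF varied by 15.8% in controls and 5.1% with baclofen. Its counting error was at most 5.99% in any library and 4 to 4.64% in the baclofen libraries. The percentiles of HLF among 5620 loci of like level were 87.2 and 20.7. The variation of HLF among baclofen libraries was thus close to its counting error. The spread within the groups entered the selection of both genes, so these values are descriptions.

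Loci beside each gene were not used to choose it. Within 50 kb of NR1D1 the assembly held 4 other loci, of which 3 were tested. With DESeq2, 0 of these 3 passed the threshold and 0 had an unadjusted p under 0.05, against 5.8% of all tested loci. With edgeR the counts were 0 and 0, against 6.42% of all loci at the unadjusted p. In mammals NR1D1 overlaps the 3′ end of the thyroid hormone receptor gene THRA on the opposite strand, and the lamprey neighbours carry no names in the sources used here. MSTRG.4742 spans NR1D1 on the opposite strand without sharing an exon base, and its mean of 1.56 normalised counts was too low for it to be tested. Past the 3′ end of NR1D1, MSTRG.4748 lies 14296 bp away on the opposite strand and has 12 exon blocks. It averaged 133.5 ± 15.6 normalised counts in baclofen libraries against 117.1 ± 14.9 in control libraries (SD, n = 5 each). Its log2 fold change was 0.18 ± 0.13 (DESeq2 adjusted p = 0.996). The small single-block locus MSTRG.4747 beside it, also on the opposite strand, had a log2 fold change of 0.11 ± 0.26 (DESeq2 adjusted p = 0.998). MSTRG.4749, 45200 bp downstream on the same strand, had -0.47 ± 0.41 (DESeq2 adjusted p = 0.998). No other locus on the scaffold of NR1D1 passed the threshold. The tested loci on that scaffold were not counted, and only 0.345% of all tested loci passed, so nothing is read from this.

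HLF sits in a denser stretch, with 10 other loci within 50 kb, 5 of them tested. With DESeq2, 0 of these 5 passed, and 2 were higher at an unadjusted p under 0.05, against 2.98% of all tested loci. With edgeR, 0 of 6 passed and 2 had an unadjusted p under 0.05, against 6.42% of all loci. Of the 6 loci with a mean count of at least 10, the 4 on the strand of HLF all had log2 fold changes above 0 and the 2 on the opposite strand had ones below 0. Within 100 kb no such split held, with 5 of 6 loci above 0 on the strand of HLF and 4 of 6 on the opposite strand. Within 50 kb, only the 2 named next reached an unadjusted p under 0.05 with DESeq2. They lie side by side on the strand of HLF, so they need not be separate signals.

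The first, MSTRG.8592, runs on the strand of HLF through the whole locus without sharing an exon base. It has 7 exon blocks, of which 4, holding 87.8% of its exon length, lie between 405 and 6360 bp past the 3′ end of HLF, and 1 lies in a gap of HLF. Its normalised counts were 1260, 1026, 1264, 1035 and 1050 with baclofen and 1039, 1031, 823.4, 778.6 and 982.4 in controls, in replicates 1 to 5. The groups overlapped only narrowly. The means were 1127 ± 124 and 931 ± 122 (SD, n = 5 each). The log2 fold change was 0.27 ± 0.10 (DESeq2 unadjusted p = 0.00580, adjusted p = 0.432). Without control replicate 1 this locus passed, at 0.32 ± 0.10 (DESeq2 adjusted p = 0.0418). In that fit 426 loci passed, against 82 with all libraries. The locus passed in no other fit with a library left out.

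The second, MSTRG.8591, is a single block of 1999 bp whose near end lies 6470 bp past the 3′ end of HLF, and it was singled out after its values were seen. It averaged 605.1 ± 67.8 normalised counts in baclofen libraries against 497.5 ± 88.6 in control libraries (SD, n = 5 each). The log2 fold change was 0.28 ± 0.12 (DESeq2 unadjusted p = 0.0193, adjusted p = 0.724). Whether these loci are transcribed apart from HLF, or from each other, was not tested. If they are not apart from HLF, their p-values are not independent of its selection.

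On the opposite strand, MSTRG.8590 also spans HLF and averaged 682.4 ± 34.3 normalised counts in baclofen libraries against 731.6 ± 135.5 in control libraries (log2 fold change -0.10 ± 0.11, DESeq2 adjusted p = 0.998). MSTRG.8596, which overlaps the 5′ part of HLF, had a log2 fold change of -0.15 ± 0.11 (DESeq2 adjusted p = 0.989). MSTRG.8595 shares 304 bp with exons of HLF on the opposite strand and had 0 counts in all 10 libraries. Counting used the strand of the library, which serves to keep fragments of these opposite-strand loci apart from HLF. Whether some were still counted for HLF was not tested. The nearest other locus past the threshold on the scaffold, MSTRG.8918, lies 6792950 bp away. With only 0.345% of all tested loci past the threshold, nothing is read from this distance.

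**Figure D3:**
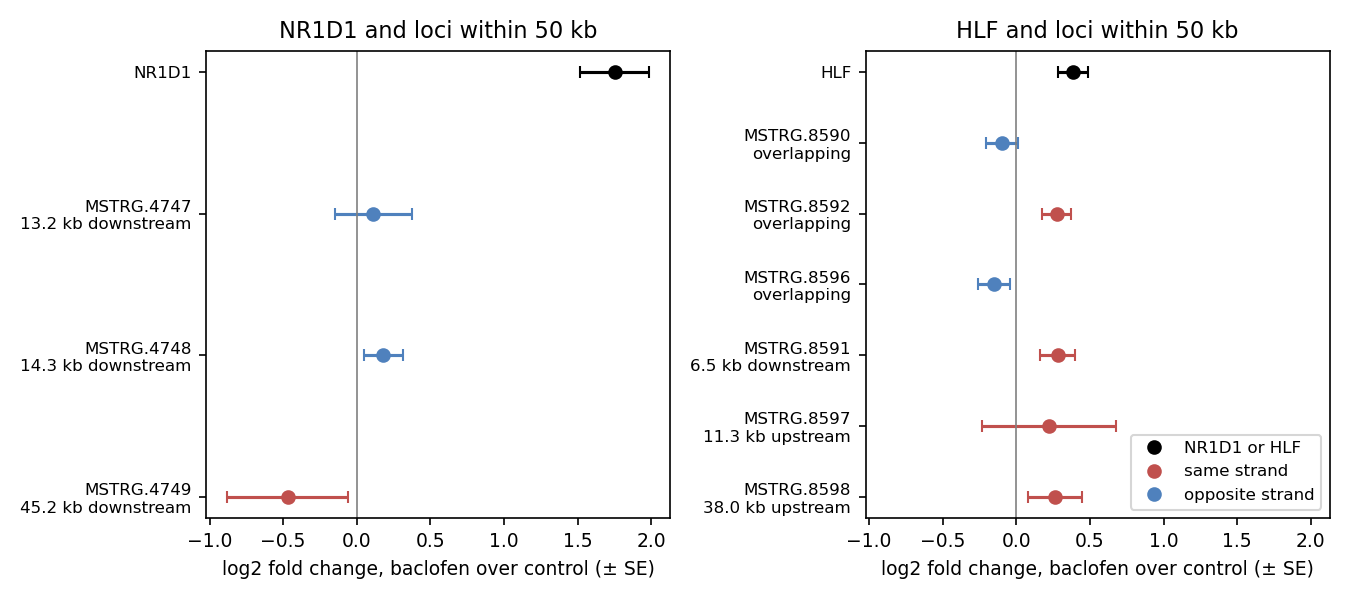
Log2 fold change of baclofen over control with its SE (horizontal axes) for NR1D1, HLF and the loci within 50 kb that had a mean count of at least 10, coloured by strand relative to the gene. NR1D1 stands at 1.75 beside neighbours from -0.47 to 0.18, and HLF at 0.39 beside same-strand neighbours from 0.22 to 0.28 and opposite-strand ones at -0.15 and -0.10.

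Whether NR1D1 and HLF moved together among libraries of one group was examined on log2 deviations from the mean of the own group, with an exact two-sided permutation test over the 14400 rearrangements within groups. Raw values fall into clusters by treatment, so no correlation was taken over them. For NR1D1 and HLF, Pearson's r was 0.44 (exact permutation p = 0.381, adjusted 0.498 over 17 relations) and Spearman's rho 0.45 (exact permutation p = 0.311, adjusted 0.458), with 5 of 10 libraries on the same side for both genes. The genes lay on the same side in 4 of 5 controls but in 1 of 5 baclofen libraries. Without control replicates 1 and 4, the farthest from the median deviation of NR1D1, r was -0.08. In this r and those below without the farthest libraries, the group means of all 5 libraries were kept. The values were thus not centred again, and an offset between the groups can enter such an r. The relation did not pass, and the pooled r was not kept without these controls. Among 16374 other loci, 13.5% had deviations at least as close to those of NR1D1 as HLF had.

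Genes known in mammals to follow a daily rhythm or to respond to glucocorticoids or cAMP were set beside both genes. All 8 come from the list made on these libraries, so their direction is not independent evidence. By DESeq2 6 were higher and 2 lower with baclofen, beside 64 higher and 18 lower of all 82 called loci. Their median log2 fold change was 0.47, a distance from 0 that follows from the selection. With edgeR, 5 of the 8 were called. They are described below by role.

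Among the nuclear receptors and transcription factors, NR0B2, a corepressor of nuclear receptors also called SHP, had a log2 fold change of 0.96 ± 0.11. CREM, a cAMP-responsive factor with a rhythmic repressor form in mammals, had 0.79 ± 0.12. KLF10, a Krueppel-like factor with a daily rhythm in mammalian liver, had 0.45 ± 0.08. These differences were all smaller than that of NR1D1 and larger than that of HLF in size, without a test between genes.

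Among genes induced by glucocorticoids in mammals, TSC22 domain family protein 3 (TSC22D3, also called GILZ) had a log2 fold change of 1.17 ± 0.30. The kinase SGK1 had 0.49 ± 0.08 and the phosphatase DUSP1 0.45 ± 0.10. The amino-acid catabolism enzymes, also glucocorticoid-induced in mammalian liver, were lower. Tyrosine aminotransferase (TAT) had -0.65 ± 0.12 and tryptophan dioxygenase -0.50 ± 0.11. TSC22D3, DUSP1 and tryptophan dioxygenase did not pass with edgeR (adjusted p = 0.0905, 0.126 and 0.0948).

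Over all 10 deviations, TSC22D3 had the highest r with NR1D1 of these 8. Its normalised counts were 1009, 1107, 1046, 920 and 1151 with baclofen and 238.4, 728.5, 638.2, 286.8 and 442 in controls, in replicates 1 to 5. Control replicates 1 and 4 were the lowest and 2 and 3 the highest, as in NR1D1. The deviations of the pair gave r = 0.87 (exact permutation p = 0.0367, adjusted 0.312 over 17 relations) and rho = 0.82 (exact permutation p = 0.0293, adjusted 0.318), on the same side in 5 of 5 controls and 3 of 5 baclofen libraries. With baclofen the orders differed, with TSC22D3 lowest in replicate 4, where NR1D1 was among the highest. Without control replicates 1 and 4, with the group means unchanged, r was 0.78. The remaining controls, replicates 2, 3 and 5, were all above their group mean in both genes, which can raise this r.

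SGK1 had the same order of extremes in controls, with replicates 1 and 4 lowest (905.4 and 895.6) and 2 and 3 highest (1147 and 1055). Its deviations gave r = 0.80 with NR1D1 (exact permutation p = 0.0247, adjusted 0.312) and rho = 0.70 (exact permutation p = 0.0654, adjusted 0.346). The pair was on the same side in 5 of 5 controls and 3 of 5 baclofen libraries. Without control replicates 1 and 4, with the group means unchanged, r was 0.62. Here too the remaining controls were all above their group mean in both genes. Control replicates 1 and 4 were also the lowest controls in HLF, NR0B2, TAT and tryptophan dioxygenase. In KLF10, CREM and DUSP1 the lowest controls were replicates 1 and 5. The share of all loci with either order was not computed. Control replicate 1 stood apart over all loci, so nothing particular to these genes is read from the order. TAT lay on the side of NR1D1 in 5 of 5 controls but 0 of 5 baclofen libraries. For tryptophan dioxygenase these counts were 4 of 5 and 0 of 5. The closest of the list to HLF was TAT, with r = 0.69 (exact permutation p = 0.0638, adjusted 0.357) and rho = 0.77 (exact permutation p = 0.0374, adjusted 0.318), and r = 0.46 without control replicates 4 and 5. With adjustment, 0 of the 17 relations passed by either measure, and 2 by r and 2 by rho had an unadjusted p under 0.05.

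**Figure D4:**
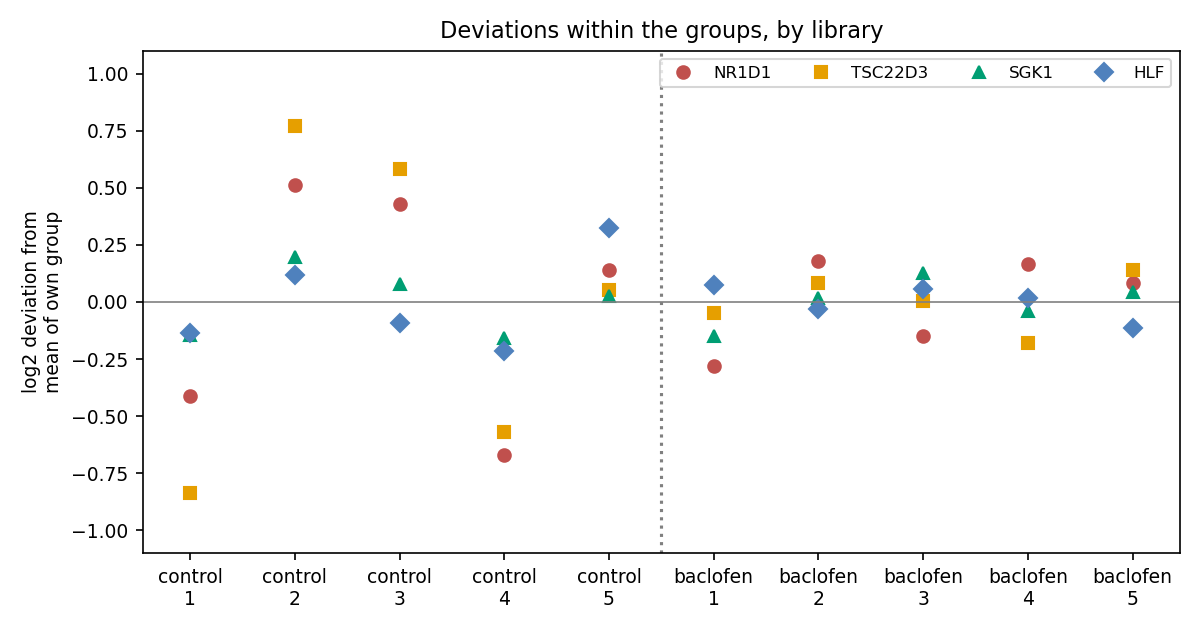
Log2 deviation of each library from the mean of its own group (vertical axis) for NR1D1, TSC22D3, SGK1 and HLF in the 5 control and 5 baclofen libraries. In controls NR1D1, TSC22D3 and SGK1 are below 0 in replicates 1 and 4 and above 0 in replicates 2, 3 and 5, while HLF is highest in replicate 5.

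Over all 16374 other loci, the named ones closest to NR1D1 in these deviations over 10 libraries were MSTRG.37639 (r = 0.89), annotated as a polymerase of a jockey-like mobile element, TSC22D3 (r = 0.87) and the Krueppel-like factor KLF7 (r = 0.83). Unnamed loci came closer, led by MSTRG.16114 (r = 0.94) and MSTRG.24706 (r = 0.92). For HLF the named ones were the sodium bicarbonate cotransporter SLC4A4 (r = 0.82), the dehydrogenase DHDH (r = 0.80) and MSTRG.18234 (r = 0.76), and the unnamed ones MSTRG.15358 (r = 0.98) and MSTRG.13074 (r = 0.94). These are the highest of many values over the same libraries and are descriptions. Only 73 of the loci compared carried a name, all from the study's lists.

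Cell markers were read beside these results. Of the 10 marker loci, 7 come from the study's baclofen list and 3 from its list for another treatment, GABA, and the 7 called below are those of the baclofen list. Their calls are therefore no independent evidence and cannot be read against the 0.345% of all loci. The 5 neural loci (CPLX1, MAP6, CARTPT, GABRA5 and GPR12) were present in every library. Their summed normalised counts were 19057 to 21199 with baclofen and 17495 to 19570 in controls. Most of this sum was CPLX1, at 14419 to 16011 with baclofen and 13201 to 14254 in controls. By DESeq2, 3 of them (CPLX1, MAP6 and GPR12) were higher. CARTPT and GABRA5 had log2 fold changes below 0, -0.09 and -0.13 (DESeq2 adjusted p = 0.998 and 0.989). VIM, a filament gene of radial glia and connective cells, was at 10281 to 11650 with baclofen and 10123 to 11276 in controls. The 4 leukocyte loci summed to 914.3 to 1141 and 998.7 to 1247, with PTPRC and TLR2 higher and CD62L and VLRA lower by DESeq2. None of the 10 loci was at 0 in any library, and their part in the NR1D1 and HLF differences was not tested.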

How the data were processed

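RNA was sequenced from 5 baclofen and 5 control libraries of lamprey brainstem. The deposited values are raw counts of fragments per locus. The authors trimmed paired-end reads with Fastp, aligned them with STAR to the Pmar_germline 1.0 assembly, assembled loci with StringTie and counted them by strand with featureCounts, without normalisation. In 2 loci a broken line was rejoined. Names come from the study's gene lists, whose values were not used.

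Counts were compared with DESeq2 1.42.0 in R 4.3.3 (Wald test, median-of-ratios size factors, Benjamini-Hochberg adjustment, threshold 0.05). Of 51816 loci with counts, 84 had no p by Cook's cutoff and 27938 no adjusted p because their mean normalised count was under 14.35. edgeR 4.0.16 was the main alternative. Deviations used log2(normalised count + 1). Scripts were tested on simulated data. There both tools returned the planted fold changes. DESeq2 made more false calls than its threshold allows and edgeR came close to it, which bears on loci near the threshold such as HLF. The simulated counts were drawn independently for each library from the spread DESeq2 had fitted to each locus. No simulated library was thus made to stand apart as control replicate 1 does. The replicate numbers showed no pairing of the libraries in these counts.

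NR1D1, HLF and the lists were chosen with earlier results of these data known. Named loci are these genes, the 3 nearest neighbours of each within 50 kb with a mean of at least 10, the list of 8, for each gene the 3 named and 2 unnamed loci closest in deviations, the 2 loci on each side of the threshold, and 10 marker loci. MSTRG.4742, MSTRG.8591, MSTRG.8595 and MSTRG.8918 fall outside this rule and were named after their values were seen. Sequences of NR1D1 and HLF were not analysed here.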

Additional observations from a re-analysis of the deposited data

Results flagged for a closer look

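In groups of 5 libraries, a library was marked where its gap to the nearest other exceeded 0.71 of the range of the group, which chance gives in about 1 group of 20. Of 38 groups examined (NR1D1, HLF, the list of 8 and the neighbours), 2 had such a library, and none was of NR1D1 or HLF. NR0B2 stood at 307.8 normalised counts in control replicate 5, while the remaining controls lay at 206.1 to 234.9. KLF10 stood at 1241 in control replicate 2, while the remaining ones lay at 1045 to 1102.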

How the results depend on the processing

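All fits use the libraries that selected NR1D1 and HLF, so these values describe the weight of a setting or library and are no independent support. NR1D1 had a log2 fold change of 1.75 to 1.81 in 8 other settings and 1.61 to 1.89 in 10 fits without a library, past the threshold in each. HLF had the same direction throughout and passed with TMM factors, total counts, a count minimum and no Cook's cutoff. It did not pass with edgeR with a filter (0.39, adjusted p = 0.264) or without (0.39, adjusted p = 0.258). Nor did it pass without independent filtering in DESeq2, which adjusts over more loci (0.39, adjusted p = 0.0911). In the 10 fits without a library, the log2 fold change of HLF was 0.33 to 0.48. HLF did not pass in 7 of these 10 fits (0.33 to 0.41, DESeq2 adjusted p from 0.0903 to 0.268). It passed without control replicate 1, 2 or 5 (0.35 to 0.48, DESeq2 adjusted p from 0.000211 to 0.0483). The number of loci past the threshold was 25 with edgeR, 30 with edgeR without a filter, and 49 (without baclofen replicate 5) to 426 (without control replicate 1) with a library left out. The neighbours past the threshold numbered 0 to 1 without a library, the 1 being MSTRG.8592 without control replicate 1, and 0 within 20 kb and 100 kb. Within 100 kb of HLF, 11 of 20 loci were tested. At an unadjusted DESeq2 p under 0.05, 3 loci were higher and 1 lower. Of all tested loci, 2.98% were higher at this p and 5.8% reached it in either direction. The 3 include MSTRG.8591 and MSTRG.8592, which need not be separate signals. Of the list of 8, edgeR called 5, and 6 to 8 passed without a library. The r of NR1D1 with HLF was 0.14 to 0.60 without a library, none under p = 0.05 by exact permutation. That of NR1D1 with TSC22D3, an alternative added after the data were seen, was 0.82 to 0.92. Its unadjusted exact permutation p was over 0.05 without control replicate 2 (0.106), 3 (0.0871) or 5 (0.201). With all libraries this relation did not pass after adjustment (exact permutation, adjusted p = 0.312 over 17 relations).

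With the replicate block, NR1D1 had a log2 fold change of 1.81, HLF 0.40 (DESeq2 adjusted p = 0.351), and 45 loci passed. Same-numbered libraries had correlations of -0.07 to -0.01 in their deviations over 16375 loci, 0 of 5 over 0.1. Pairs with different numbers ranged from -0.27 to 0.28. The numbers thus showed no pairing in these counts, and a batch shared between libraries was not tested. The causes of these differences were not tested.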
